A study of Mus musculus with 6 samples.

Results

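Potassium channel genes encode the pores, silent subunits and auxiliary subunits of the channels that let potassium ions cross the cell membrane. They were examined in neural stem and progenitor cells (NSPCs) of the subgranular zone (SGZ), the neurogenic layer of the hippocampal dentate gyrus, in a mouse model of Alzheimer's disease. The members were chosen by symbol alone, as genes named Kcn with a family letter and a number. Of 98 matching symbols, 5 opposite-strand transcripts were left out and 93 were channel genes, of which 81 had a mean normalized count of at least 10 over the 6 libraries. These 81 members were part of 18664 genes tested and of 55471 genes in the table. By class, the members were 28 of 30 voltage-gated pore subunits, 8 of 10 silent voltage-gated subunits, 10 of 12 auxiliary subunits, 13 of 15 inward rectifiers, 11 of 14 two-pore channels, 8 of 9 calcium-activated channel genes and 3 of 3 sodium- or pH-activated channel genes.

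The tested mice were 3xTg;Nestin-YFP, a triple-transgenic model whose alleles include mutant human APP and tau transgenes (3xTg, 3 libraries), and their controls were NTG;Nestin-YFP, without these alleles (NTG, 3 libraries). Both groups carried Nestin-CreERT2 and the R26LSL-EYFP reporter, were given tamoxifen by gavage, and were sampled at postnatal day 35, before plaques and tangles form in this model. The labels give strain B6129SF2/J, and the NTG colony was kept separately from the 3xTg colony, so genotype and colony cannot be told apart. YFP-positive, propidium iodide-negative cells were sorted by FACS and their RNA was read as bulk cDNA libraries. The reporter marks every cell in which the Nestin-driven Cre was active, and whether a library pooled several mice is not given in the sources used here. The 3 libraries of a group are labelled as replicates and described as biological replicates.

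A potassium channel sets how far the resting membrane potential lies from threshold, how an action potential ends and how potassium released by active neurons is cleared. Voltage-gated pores open on depolarization, inward rectifiers pass current best near rest, two-pore channels carry background leak, and calcium- or sodium-activated channels couple the ion inside the cell to potassium efflux. Astrocytes and radial glia-like cells of the brain are known for a strongly negative resting potential carried by inward rectifier and two-pore channels.

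The 3xTg libraries held between 53063475 and 81800375 assigned reads, and the NTG libraries between 32731794 and 42576455. Of the marker lists, all genes were detected in at least 1 library, with neural stem or progenitor genes summing to normalized counts (reads divided by the size factor of the library) of 439670 to 522800 in 3xTg and 427560 to 482150 in NTG. Most of that sum was Slc1a3, at 356480 to 443420 in 3xTg and 340940 to 404680 in NTG. Nes had 741 to 913 in 3xTg and 844 to 982 in NTG. The astrocyte genes summed to 726500 to 871480 in 3xTg and 703130 to 869950 in NTG. These sums do not give the share of each cell type. A gene is named as called where limma gave an adjusted p below 0.05 and the log2 fold change of 3xTg over NTG was beyond 0.5 either way. None of 10 stem or progenitor, 6 neuroblast, 11 mature neuron, 6 astrocyte, 5 red cell and 4 Y-linked genes was called. At an unadjusted p under 0.05 those lists gave 2, 1, 1, 0, 0 and 0 higher and 2, 0, 2, 1, 5 and 0 lower genes. With the same thresholds edgeR called 0 of them and DESeq2 called Gad2 higher and Camk2a and Hbb-bt lower. Lower calls were made for 3 of 10 mural genes, 3 of 9 endothelial genes, 1 of 9 microglial genes and 1 of 9 oligodendrocyte lineage genes (Cspg4, which is also on the mural list). The summed oligodendrocyte lineage level was 243780 in NTG replicate 3 against 487360 to 540460 in the other 5 libraries. Y-linked genes summed to 2.83 in 3xTg replicate 1 and 4.68 in NTG replicate 1 and to 3247 to 7654 in the others, so replicate 1 of each group lacked them. In bulk libraries fewer cells of a type and less RNA per cell cannot be told apart, and mouse App and Mapt had log2 fold changes of -0.02 and -0.03.

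Of the 81 members, 1 was called higher in 3xTg and 2 were called lower. The gene called higher was Kcnj14, which encodes the inward rectifier Kir2.4, and those called lower were Kcnj11, the pore of the ATP-sensitive channel Kir6.2, and Kcnc4, the fast voltage-gated channel Kv3.4. Across all genes tested, 1.13% were called higher and 1.67% were called lower, so the members' shares of 1.23% and 2.47% were near the background. Fold changes were below 0 for 61 of 81 members (75.3%), against 49.2% of all genes tested, and the median log2 fold change was -0.25 for the members and 0.01 for all genes. All 3xTg libraries lay below all NTG libraries for 17 members (21%), against 12.6% of all genes, and above them for Kcnj14 alone (1.23%), against 15.1%. At an unadjusted limma p under 0.05, 17 members were lower, against 11.4% of all genes, and 3 were higher, against 12.1%. With 3 libraries against 3, an exact permutation test cannot give a two-sided p below 0.1, which each of the 18 members without overlap reached.

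Kcnj14 is shown with the processed pseudogene Gm5522, because the copy is near-identical to its coding sequence and reads of one can be counted for the other. Kcnj14 (ENSMUSG00000058743) lies at chr7:45816460-45824782 on the minus strand of GRCm38, and Gm5522 (ENSMUSG00000100212) at chr1:10805281-10806522 on the plus strand. The 1242 bases of Gm5522 aligned without a gap to 95.4% of the 1302 coding bases of Kcnj14, with 11 differing bases (99.1% identity) and 342 bases in the longest stretch without a difference. Below are coding bases 61 to 210, from chr7:45819870-45820019 (minus strand) and chr1:10805281-10805430 (plus strand), with the 5 differing bases in capitals.
Kcnj14: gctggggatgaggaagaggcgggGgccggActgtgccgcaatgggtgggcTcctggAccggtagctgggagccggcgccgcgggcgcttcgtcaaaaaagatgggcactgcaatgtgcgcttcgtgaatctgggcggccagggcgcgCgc
Gm5522: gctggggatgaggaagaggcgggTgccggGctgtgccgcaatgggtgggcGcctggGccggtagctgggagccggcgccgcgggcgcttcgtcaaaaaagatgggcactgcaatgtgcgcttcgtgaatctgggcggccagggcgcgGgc

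Kcnj14 had normalized counts of 1088, 979 and 887 in the 3xTg libraries, against 452, 468 and 435 in the NTG libraries. Every 3xTg library was above every NTG library, and the spread within each group was small beside the gap. The means were 985 ± 101 in 3xTg and 452 ± 16.8 in NTG (SD, n = 3 each), a ratio of 2.18, and the log2 fold change was 1.12 with a standard error of 0.13 (limma, adjusted p = 0.0019). Kcnj14 was called higher in 19 of 19 other settings, with log2 fold changes between 1.02 and 1.35 and the largest adjusted p at 0.015, when 3xTg replicate 2 was left out.

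The copy was also higher. Gm5522 had 38, 98 and 51 reads in the 3xTg libraries, against 1, 3 and 1 reads in the NTG libraries. No 3xTg library came near the NTG libraries, although the NTG reads were few. Scaled for depth, the pooled reads gave a ratio of 20.1 with an exact 95% counting interval of 8.44 to 62.5, which covers counting error only. In limma the log2 fold change of Gm5522 was 3.83 (adjusted p = 0.0024). Gm5522 averaged normalized counts of 42.9 in 3xTg and 2.29 in NTG, so it passed the filter on the mean only through the 3xTg libraries. For comparison, Kcnj14 had 4088 reads over the 3xTg libraries and 1014 over the NTG libraries. Summing the normalized counts of both genes, an alternative chosen after the values were seen, gave a log2 fold change of 1.17. How the authors' counting treated reads that match both genes is not given in the sources used here, so the share of Kcnj14 reads that came from the copy was not tested.

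Genes beside Kcnj14 on chromosome 7 were not called higher. Grwd1, 441 bases away, had normalized counts of 1001, 1016 and 1116 in 3xTg, against 1125, 1158 and 1249.8 in NTG (log2 fold change -0.17, limma adjusted p = 0.371). Cyth2, 1879 bases away on the other side, had a log2 fold change of 0.11 (adjusted p = 0.482). Of the 14 genes tested within 100000 bases of Kcnj14, 1 was called, the dynein docking gene Odad1, which was lower (log2 fold change -0.75, limma adjusted p = 0.0279).

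**Figure D1:**
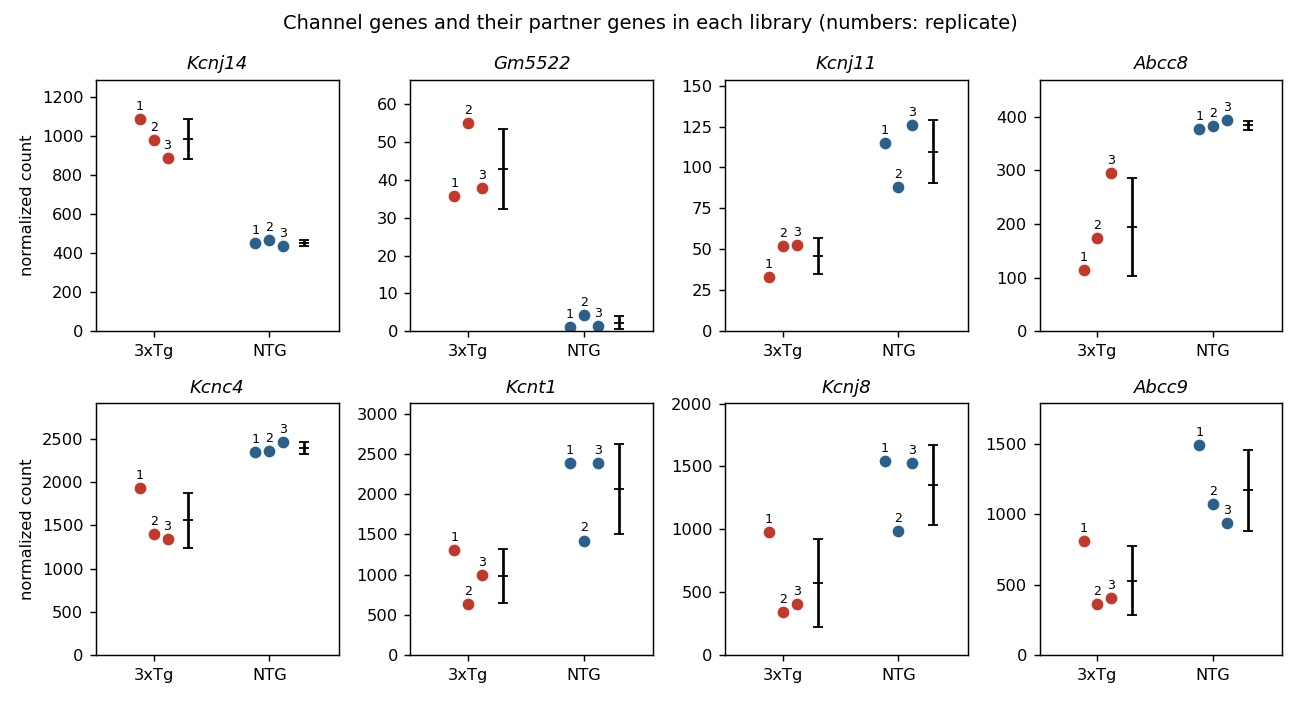
Normalized count (vertical axes, starting at 0) of 5 channel genes, 2 partner genes and the pseudogene Gm5522 in the 3 3xTg libraries (red, left) and the 3 NTG libraries (blue, right), with replicate numbers and, beside each group, the mean and SD. The Kcnj14 counts of 887 to 1088 in 3xTg lie above those of 435 to 468 in NTG, whereas the 3xTg libraries lie below the NTG libraries for Kcnj11, Abcc8, Kcnc4, Kcnt1, Kcnj8 and Abcc9.

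Inward rectifiers showed both directions. Of 13 members, 1 was called higher and 1 lower, 9 had fold changes below 0, and the class median was -0.34 on the log2 scale. Kcnj11 (ENSMUSG00000096146, chr7:46093953-46100764, minus strand) encodes Kir6.2, which with the sulfonylurea receptor SUR1 forms a channel that closes when ATP is high. Kcnj11 had normalized counts of 33.0, 51.7 and 52.8 in 3xTg, against 115, 88.4 and 126 in NTG. The groups did not overlap, but the level was low, with 198 reads in all of the 3xTg libraries and 246 in all of the NTG libraries. The log2 fold change was -1.25 with a standard error of 0.28 (limma, adjusted p = 0.0470). Kcnj11 was called in 9 of 19 other settings, and leaving out any library except 3xTg replicate 1 ended the call, with adjusted p values of 0.0704 to 0.143 and log2 fold changes of -1.40 to -1.15. It was not called with the GC trend removed either, where the log2 fold change was -1.04 (adjusted p = 0.104).

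Abcc8, which encodes the SUR1 partner of Kir6.2 and was named after its values were seen, lies 3759 bases from Kcnj11 on chromosome 7. It had normalized counts of 115, 174 and 295 in 3xTg, against 377, 383 and 393 in NTG. All 3xTg libraries were below the NTG libraries, and 3xTg replicate 3 was closest to them (log2 fold change -1.08, standard error 0.29, limma adjusted p = 0.0792). Abcc6, a transporter gene 63651 bases from Kcnj11, was called lower (log2 fold change -1.85, adjusted p = 0.0224), and Nomo1, 9741 bases away, was not (-0.19, adjusted p = 0.283).

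The other ATP-sensitive pair, Kcnj8 and Abcc9, encodes Kir6.1 and SUR2 and is known as a marker pair of pericytes. Kcnj8 had normalized counts of 975, 345 and 402 in 3xTg, against 1539.9, 986 and 1528 in NTG. The groups did not overlap, but 3xTg replicate 1 came close to NTG replicate 2. The log2 fold change was -1.36 with a standard error of 0.34 (limma, adjusted p = 0.0664), and without 3xTg replicate 1 it was -1.83 (adjusted p = 0.0030). Leaving out any other single library gave limma adjusted p values of 0.0714 to 0.262. Kcnj8 was called in 4 of 19 other settings. Abcc9 had 809, 364 and 406 in 3xTg, against 1493, 1074 and 938 in NTG (log2 fold change -1.22, adjusted p = 0.0545). Of the 8 other mural genes tested, 3 were called lower (Rgs5, Cspg4 and Higd1b) and all 8 had fold changes below 0. Their list summed to 36044, 22101 and 23317 in 3xTg, against 49174, 42471 and 46123 in NTG, with none at 0, and the 9 endothelial genes to 3337 to 5909 in 3xTg against 7345 to 9149.5 in NTG. The part of these cells in the Kcnj8 difference was not tested.

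The most abundant inward rectifiers differed little. Kcnj16 and Kcnj10 encode Kir5.1 and Kir4.1, subunits of the glial channel that takes up potassium. Kcnj16 had normalized counts of 8262, 7708 and 7014 in 3xTg, against 9442, 6416 and 7141 in NTG (log2 fold change 0.02, limma adjusted p = 0.959). Kcnj10 had 4626, 4341 and 4509 in 3xTg, against 4852, 4629 and 5478 in NTG. The Kcnj10 ranges were narrowly apart, and the fold change of -0.15 did not pass the test (adjusted p = 0.40). Among the low members, named here after their values were seen, the G protein-gated subunit gene Kcnj6 had 9.42, 4.50 and 2.97 in 3xTg, against 14.0, 25.2 and 17.7 in NTG (log2 fold change -1.67, adjusted p = 0.0925). Another of that family, Kcnj5, had 20.7, 7.31 and 22.3 in 3xTg, against 8.19, 1.40 and 4.44 in NTG (1.71, adjusted p = 0.144). These counts came from few reads, and the Kcnj5 groups overlapped. Kcnj6 averaged 5.63 in 3xTg and Kcnj5 averaged 4.68 in NTG. Each therefore passed the filter on the mean only through the group where it was higher.

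Among voltage-gated pore subunits, 1 of 28 members was called lower and 0 higher, at an unadjusted p under 0.05 there were 4 lower and 1 higher, and edgeR and DESeq2 also called 0 higher. The class median was -0.16 on the log2 scale. Kcnc4 (ENSMUSG00000027895, chr3:107438303-107459552, minus strand) encodes Kv3.4, which opens and inactivates rapidly and shortens action potentials. Kcnc4 had normalized counts of 1929, 1398 and 1343 in 3xTg, against 2347, 2364 and 2470.0 in NTG. All NTG libraries lay close together, and 3xTg replicate 1 was nearest to them. The log2 fold change was -0.64 with a standard error of 0.14 (limma, adjusted p = 0.0455). Kcnc4 was called in 11 of 19 other settings. Leaving out any library except 3xTg replicate 1 ended the call, with adjusted p values of 0.0771 to 0.199 and log2 fold changes of -0.65 to -0.54. Removing the GC trend also ended it, and there the log2 fold change was -0.38 (adjusted p = 0.10).

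Kcna2 and Kcna6, pores Kv1.2 and Kv1.6 of the axonal Shaker family, had the highest levels of the class per kilobase over the 6 libraries. In 3xTg they averaged 598 and 560 per kilobase, above Kcnc4 (424), whereas in NTG Kcnc4 was the highest of these at 653, against 585 for Kcna2 and 525 for Kcna6. Kcna2 had normalized counts of 7438, 7331 and 6578 in 3xTg, against 7888, 6574 and 6421 in NTG (log2 fold change 0.04, adjusted p = 0.872). Kcna6 had 3437, 3375 and 3170.1 in 3xTg, against 3569, 3572 and 2227 in NTG. The low Kcna6 library was NTG replicate 3, in which the oligodendrocyte lineage genes were also low, and the log2 fold change was 0.12 with it and -0.10 without it (limma, adjusted p = 0.690 and 0.631). Kcna1, the partner pore Kv1.1 and named after its values were seen, had 1587, 1597 and 1680.2 in 3xTg, against 2020, 2252 and 1019 in NTG, again with NTG replicate 3 lowest. The part of these cells in the Kcna1 and Kcna6 levels was not tested, and 39.6% of the exon bases of Kcna6 are shared with the opposite-strand gene Gm26673.

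Kcnh1, the ether-a-go-go channel Kv10.1 and named after its values were seen, had normalized counts of 50.9, 37.7 and 62.5 in 3xTg, against 86.6, 85.5 and 114 in NTG (log2 fold change -0.92, limma adjusted p = 0.101), and was called lower by DESeq2. The groups did not overlap.

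Silent voltage-gated subunits form no channel alone and change the gating of the pores they join. None of 8 was called in limma, edgeR or DESeq2, 0 higher and 2 lower reached an unadjusted limma p under 0.05, and the class median was -0.40. Kcng4 (Kv6.4), the most abundant, had normalized counts of 2873, 2787 and 2396 in 3xTg, against 3139.6, 3433 and 3254 in NTG, without overlap (log2 fold change -0.29, limma adjusted p = 0.151). Kcng1 (Kv6.1) had 97.0, 59.1 and 37.2 in 3xTg, against 122.9, 196 and 79.9 in NTG (-1.05, adjusted p = 0.165). Kcng2 (Kv6.2) had 134, 42.7 and 50.6 in 3xTg, against 111, 112 and 69.5 in NTG (-0.52, adjusted p = 0.470). The Kcng1 and Kcng2 groups overlapped because 3xTg replicate 1 was high. Kcns1 (Kv9.1) had 77.3, 102 and 84.8 in 3xTg, against 21.1, 82.7 and 76.9 in NTG (0.75, adjusted p = 0.347), and without the low NTG replicate 1 its log2 fold change was 0.13.

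Auxiliary subunits set the trafficking and gating of the pores. None of 10 was called in limma, edgeR or DESeq2, 0 higher and 3 lower reached an unadjusted limma p under 0.05, and 9 of 10 had fold changes below 0 with a median of -0.32. Kcnip3, also known as calsenilin or DREAM, is a calcium-binding protein that modulates Kv4 pores and represses transcription. Kcnip3 had normalized counts of 10919, 9749 and 9513 in 3xTg, against 11216, 13288 and 13339 in NTG. The groups did not overlap (log2 fold change -0.32, standard error 0.11, limma adjusted p = 0.134). Kcnab2, the Kv1 beta subunit, had 598, 507 and 634 in 3xTg, against 704, 718 and 723 in NTG (-0.31, adjusted p = 0.201). Kcne4, known to inhibit Kv1 pores, had 167, 83.8 and 123.4 in 3xTg, against 233, 169.7 and 177 in NTG (-0.67, adjusted p = 0.179). Neither of these overlapped between the groups, and the Kcne4 ranges were narrowly apart. Kcne1l, an X-linked member of the Kcne family, had 1479, 1518 and 1388 in 3xTg, against 1093, 1149 and 1415 in NTG (0.27, adjusted p = 0.229), and its groups overlapped through NTG replicate 3.

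Two-pore channels held the most abundant member. None of 11 was called in limma, edgeR or DESeq2, 0 higher and 2 lower reached an unadjusted limma p under 0.05, and the class median was -0.30. Kcnk1 encodes TWIK-1, a background channel known from astrocytes. It had normalized counts of 20289, 16200 and 14882 in 3xTg, against 25025, 22796 and 22713 in NTG. Every 3xTg library was lower, by a log2 fold change of -0.47 with a standard error of 0.13 that did not pass the test (limma, adjusted p = 0.0881). Without 3xTg replicate 1 the log2 fold change was -0.60 and the gene was called lower (adjusted p = 0.0131), in a setting that called 5.74% of all genes lower. Leaving out any other single library gave limma adjusted p values of 0.119 to 0.321. Kcnk1 was called in 2 of 19 other settings. Kcnk13, the halothane-inhibited channel THIK-1 known from microglia, had 761, 649 and 805 in 3xTg, against 1058, 1111 and 887 in NTG (-0.46, adjusted p = 0.103). Of 9 microglial genes, which summed to 5762 to 7655 in 3xTg and 7301 to 8734 in NTG with none at 0, P2ry12 was called lower, and their part in the Kcnk13 difference was not tested. Kcnk2, the stretch-sensitive channel TREK-1, had 2993, 2690.2 and 2629 in 3xTg, against 2876, 2440.2 and 3073 in NTG, with nearly equal means (-0.01, adjusted p = 0.969).

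No calcium-activated channel gene passed the test. None of 8 was called in limma, edgeR or DESeq2, none reached an unadjusted limma p under 0.05 in either direction, and the class median was -0.21. Kcnn2, the small-conductance channel SK2, had normalized counts of 11887, 7737 and 7884 in 3xTg, against 8342, 7106 and 8476 in NTG. The 3xTg mean was set by replicate 1, and the log2 fold change was 0.18 with that library and -0.03 without it (adjusted p = 0.539 and 0.896). Kcnn3 (SK3) had 2492, 2231 and 1893 in 3xTg, against 2813, 2618 and 2426 in NTG (-0.25, adjusted p = 0.245). Kcnn1 (SK1) had 948, 785 and 822 in 3xTg, against 848, 808 and 991 in NTG (-0.05, adjusted p = 0.847). The ranges of both overlapped. Kcnmb1, a beta subunit of the large-conductance channel best known from smooth muscle, had 96.1, 179 and 107 in 3xTg, against 160.3, 171 and 217 in NTG (-0.56, adjusted p = 0.234). Kcnn4, the intermediate-conductance channel, had 41.5, 64.7 and 50.6 in 3xTg, against 59.7, 75.7 and 129 in NTG (-0.69, adjusted p = 0.237). Both overlapped between the groups.

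The 3 sodium- or pH-activated genes differed from each other. None was called by limma or edgeR, and 0 higher and 1 lower reached an unadjusted limma p under 0.05. Kcnt1 encodes Slack, a sodium-activated channel that dampens firing. It had normalized counts of 1308, 632 and 999 in 3xTg, against 2388, 1423 and 2384 in NTG. The groups did not overlap, and replicate 2 was the lowest library of each. The log2 fold change of -1.10 (standard error 0.27) missed the threshold in limma (adjusted p = 0.0630) and passed it in DESeq2 (0.00099). Its relative Kcnt2 (Slick) had 23.6, 74.2 and 61.7 in 3xTg, against 42.1, 30.9 and 31.1 in NTG (0.47, limma adjusted p = 0.527). Kcnu1, the pH-sensitive channel Slo3 known from sperm, had 53.7, 54.0 and 37.2 in 3xTg, against 69.0, 70.1 and 47.3 in NTG (-0.36, adjusted p = 0.484). The Kcnt2 and Kcnu1 groups overlapped.

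**Figure D2:**
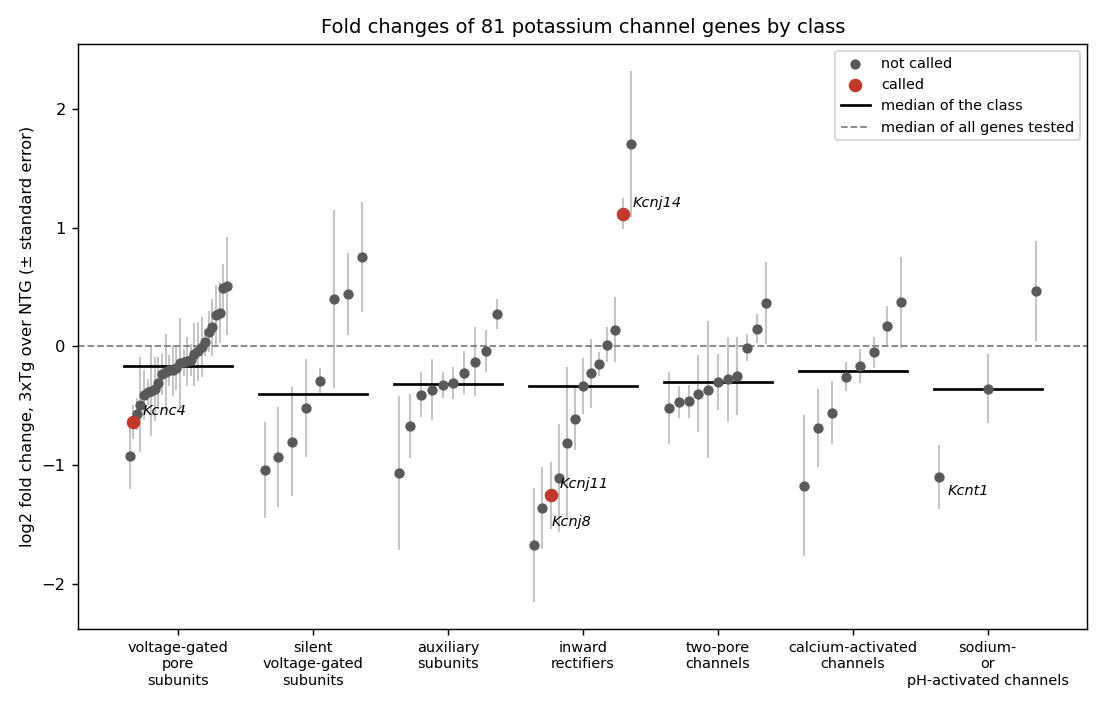
Log2 fold change of 3xTg over NTG (vertical axis) with its limma standard error (bars) for each of the 81 members, ordered by value within the 7 classes (horizontal axis). Called genes are red, thick lines are class medians, which run between -0.40 and -0.16, and the dashed line is the median of all genes tested, 0.01.

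Levels between genes were compared as normalized counts per kilobase of exons. Kcnk1 was the highest at 9091 per kilobase over the 6 libraries, followed by Kcnip3 at 3197, Kcnj16 at 1947 and Kcnn2 at 1148. Below them the order differed between the groups. Per kilobase, Kcne1l (900 to 984) lay above Kcnj10 (803 to 856) in 3xTg, whereas Kcne1l (708 to 917) and Kcnj10 (856 to 1013) overlapped in NTG. Kcna2, Kcnk2 and Kcna6 overlapped in both groups, at 532 to 625 in 3xTg and 375 to 663 in NTG. Kcnc4 lay below all of these in 3xTg (366 to 526), and in NTG its 640 to 674 lay above Kcnk2 and Kcna6 and overlapped Kcna2. In all, 4 members were at 1000 per kilobase or more, 24 at 100 or more and 67 at 10 or more. Kcnk1 alone took 32.3% to 35.9% of the members' summed level per kilobase in 3xTg, against 37.8% to 39.9% in NTG. The two-pore share, most of it Kcnk1, was 37.1% to 40.2% in 3xTg against 42% to 43.9% in NTG. This share does not describe the other two-pore genes. The calcium-activated share was 7.26% to 8.44% in 3xTg against 5.76% to 6.45% in NTG. Neither the two-pore nor the calcium-activated share overlapped between the groups, as was the case for the sodium- or pH-activated share (0.427% to 0.615% in 3xTg against 0.659% to 0.997% in NTG). Auxiliary subunits held 17.5% to 19.3% in 3xTg and 15.6% to 19.3% in NTG, inward rectifiers 15.6% to 16.2% and 12.5% to 15.7%, voltage-gated pores 14.0% to 15.8% and 12.9% to 15.2%, and silent subunits 3.53% to 3.89% and 3.34% to 4.09%, with overlap in each. The summed level of the calcium-activated members themselves was 1538 to 2134 per kilobase in 3xTg and 1515 to 1734 in NTG and overlapped. The summed level of all members was 20632 to 25292 in 3xTg, against 26276 to 28082 in NTG. Kcnk1 alone held 6659 to 9078 of it in 3xTg and 10163 to 11197 in NTG. The members other than Kcnk1 were not summed apart, so the summed level does not describe them. The auxiliary, inward rectifier and voltage-gated pore sums overlapped between the groups, like the calcium-activated sum. The two-pore, silent and sodium- or pH-activated sums were lower in each 3xTg library. Each was mostly a single gene, namely Kcnk1, Kcng4 and Kcnt1. Kcng4 held 630 to 755 of the silent sum of 728 to 895 in 3xTg, and 825 to 902 of 938 to 1074 in NTG. Kcnt1 averaged 103 per kilobase in 3xTg and 217 in NTG, where the class sums were 91.7 to 155 and 173 to 276. These sums do not describe the other genes of their classes.

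**Figure D3:**
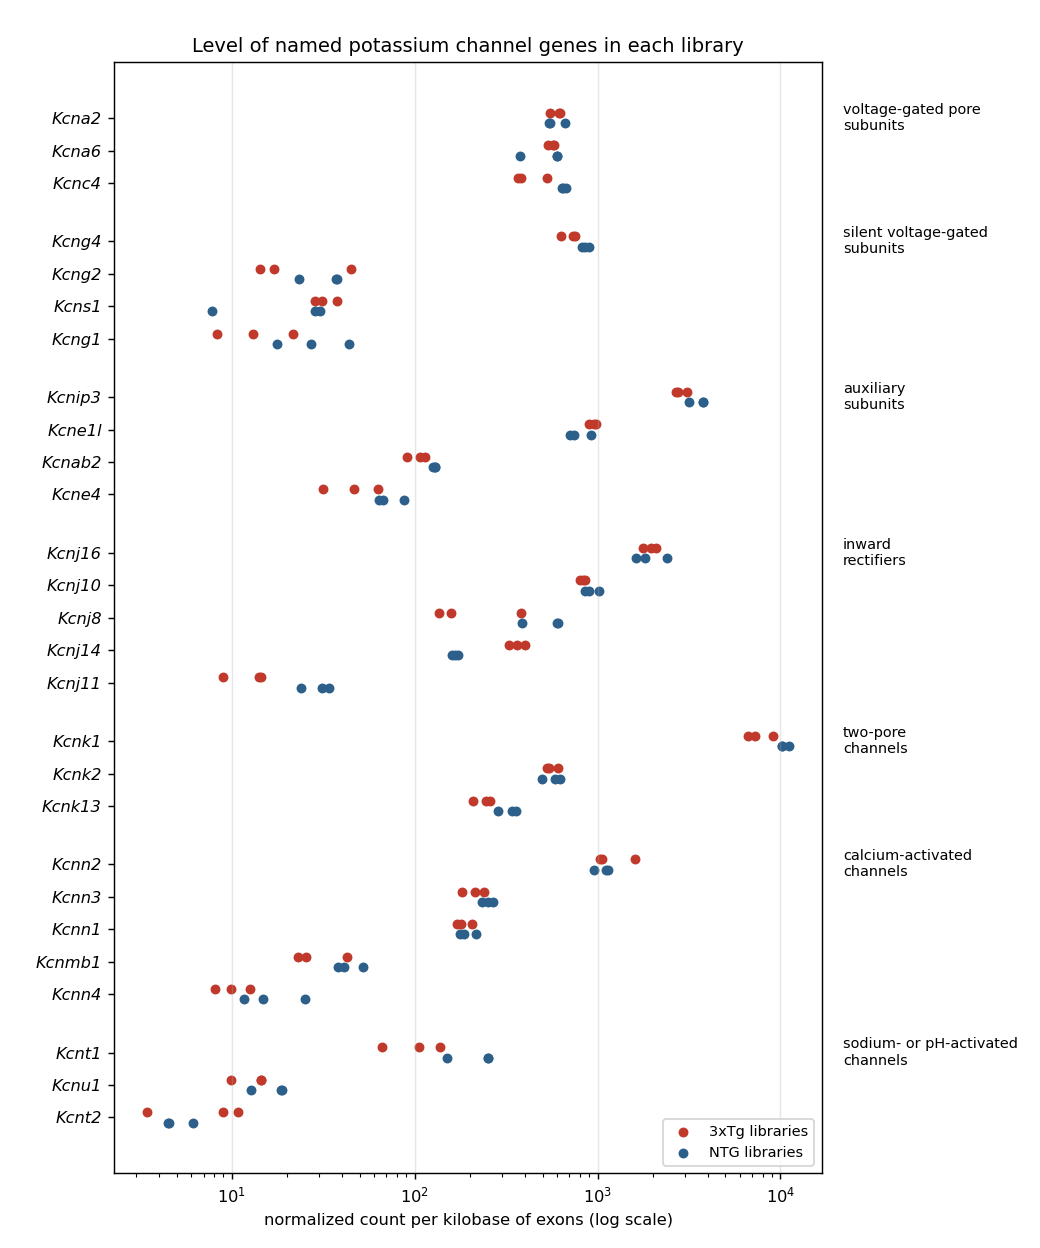
Normalized count per kilobase of exons (horizontal axis, log scale) of the named members in each 3xTg library (red, upper row of a gene) and each NTG library (blue, lower row), grouped by class. Kcnk1 lies highest, at a mean of 7662 in 3xTg and 10520 in NTG, and the red points of Kcnj14 lie to the right of its blue points.

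Of the 12 channel genes under the filter, Kcnk16, Kcnj1 and Kcnk15 were listed at 0 in all 6 libraries, and the highest mean among the rest was 2.33 for Kcna10. Kcnv2 had 1.88, 4.50 and 1.49 normalized counts in 3xTg and 0 in each NTG library, which is too few reads to compare. Among low members, Kcne2 and Kcnj13, both known from the choroid plexus and named after their values were seen, followed NTG replicate 3. Kcne2 had normalized counts of 23.6, 21.4 and 87.0 in 3xTg, against 81.9, 30.9 and 169 in NTG (log2 fold change -1.07, limma adjusted p = 0.340). Kcnj13 had 49.0, 37.7 and 114 in 3xTg, against 136, 35.1 and 244 in NTG (-0.81, adjusted p = 0.465). The groups of both overlapped widely. A list of 10 choroid plexus genes, also chosen after the data were seen, summed to 29824 to 43223 in 3xTg and 31199 to 71045 in NTG, with the highest sums in replicate 3 of each group and none of its genes at 0. Its part in these levels was not tested, and 49.1% of the exon bases of Kcnj13 are shared with Gigyf2 on the opposite strand.

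The median fold change of all genes was lower the higher the GC content of their transcripts, and the members were GC-rich. Their median GC content was 52.9%, against 49.8% for all genes tested, and 30 of 81 members fell in the GC-richest of 5 equal bins of all genes. In that bin the median log2 fold change was -0.31 for the members and -0.22 for all genes. In the GC-poorest bin, with 9 members, it was 0.02 for the members and 0.26 for all genes, so that members lay below all genes at both ends. In the bins between, the medians were -0.31 and 0.14, -0.04 and 0.03, and -0.31 and -0.09 for 18, 8 and 16 members and for all genes. With the trend of each library with GC content removed, the members' median was -0.16 against 0.01 for all genes, 56 of 81 members were below 0, and Kcnj14 was the only member called. The part of GC content in the members' median was not tested beyond this removal.

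**Figure D4:**
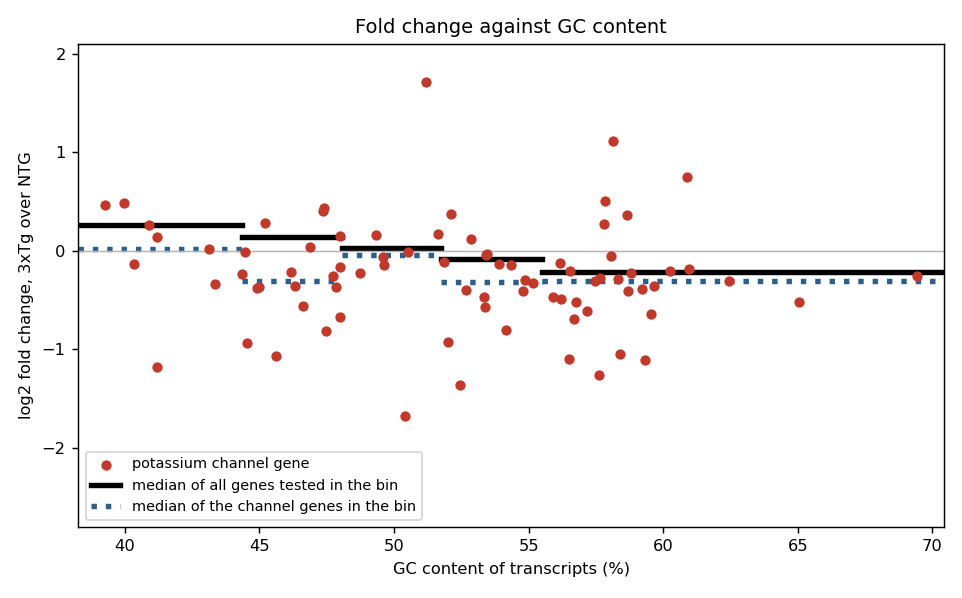
Log2 fold change of 3xTg over NTG (vertical axis) against the GC content of transcripts in percent (horizontal axis) for the 81 members (points), with the median of all genes tested (solid) and of the members (dotted) in each of 5 bins of GC content. The solid steps fall between 0.26 and -0.22, and the dotted steps lie below them in each bin.

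The count of lower members changed with the libraries used, and most when 3xTg replicate 1 was left out. Of the 3xTg libraries, that replicate had the highest mural, endothelial, red cell, stem or progenitor, astrocyte, oligodendrocyte lineage and microglial sums. Its neuroblast and mature neuron sums were the lowest of them. The part of these cells in the count was not tested. Without 3xTg replicate 1, 9 members were called lower, against 5.74% of all genes tested. They included Kcnc4, Kcnj11, Kcnj12, Kcnj4, Kcnj6, Kcnj8, Kcnk1 and Kcnt1. With sample weights, which count libraries that stand apart less, 14 members were lower, against 7.54% of all genes. Leaving out any other single library gave 0 or 1 lower members. In the 18 other settings that tested all 81 members, 56 to 63 had fold changes below 0. In all of those settings 44 members stayed below 0 and 13 above it, and 24 crossed it in at least 1.

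**Figure D5:**
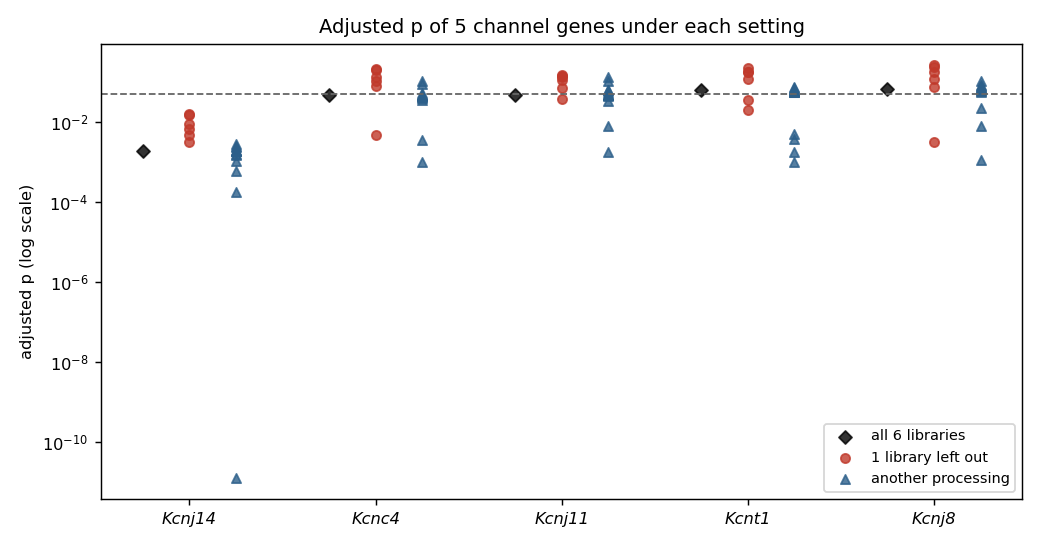
Adjusted p (vertical axis, log scale) of 5 members with all 6 libraries (black diamonds), with 1 library left out (red circles) and with another processing of the 6 libraries (blue triangles), the dashed line marking 0.05. Kcnj14 lies below the line under each of the 19 other settings, and the other 4 genes lie on both sides of it.

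Genes that act with potassium channels were taken as a list of 40, of which 36 were tested. In limma 1 was called lower and 0 higher, 8 lower and 0 higher reached an unadjusted p under 0.05, and edgeR and DESeq2 also called 0 higher. The list's median log2 fold change was -0.10, against 0.01 for all genes. The lower gene was Hcn2, a pacemaker channel pore that opens on hyperpolarization and carries sodium and potassium. Hcn2 had normalized counts of 1897, 1258 and 1862 in 3xTg, against 2652, 2681 and 2612 in NTG, without overlap (log2 fold change -0.69, standard error 0.15, limma adjusted p = 0.0473). The call held in 10 of 19 other settings. With the GC trend removed the log2 fold change of Hcn2 was -0.32 (adjusted p = 0.167) and Abcc9 was the partner called (-1.32, adjusted p = 0.0494). Leaving out any library except 3xTg replicate 1 also ended the Hcn2 call (adjusted p = 0.0692 to 0.137). Aqp4, the astrocyte water channel that lies beside Kir4.1 and was named after its values were seen, had a log2 fold change of 0.20 and was not called (adjusted p = 0.417).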

How the data were processed

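Bulk RNA-seq was carried out on FACS-isolated YFP-positive SGZ cells of 3 3xTg and 3 NTG mice or pools at postnatal day 35 (SMART-Seq V4, Nextera XT). Per the study's methods and processing notes, the authors aligned reads to GRCm38 (mm10) with HISAT2, assigned them to genes with featureCounts and scaled them with DESeq2; tool versions, annotation release, strand setting and the treatment of reads with several matches are not given in the sources used here. The deposited table holds normalized counts per gene and library, a signal the authors made by dividing read counts by size factors. Its columns of the authors' own mean, fold change, p-values and weight were not used. Whole reads were recovered from the normalized counts, with 100% of values within 0.01 of a whole read.

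Members and gene lists were chosen with earlier results of these data known. After a filter on the mean normalized count (10 or more over the 6 libraries), genes were tested with limma 3.58.1 (trend) on log2(normalized count + 1) in R 4.3.3, with Benjamini-Hochberg adjustment over all 18664 genes, without covariates. A gene was called at an adjusted p under 0.05 and a log2 ratio of 3xTg to NTG above 0.5 or below -0.5, and fold changes of low genes are understated on this scale. Named were every called member, the 3 members of each class with the highest mean per kilobase and the 2 with the lowest p, and of the partners the called genes and the 3 with the lowest p. Genes outside this rule are said to be named after their values were seen. Some genes that the rule would name are not reported here. Positions and exon lengths came from GENCODE M21 (GRCm38), which held 55230 of the 55471 genes and all 81 members. Near-identical copies were searched with BLAST 2.17.0 (at least 95% identity over at least 100 bases). Overlapping genes were taken from the same annotation, in which 26 members share exon bases with another gene and 7 share over 10%; without a stated strand setting, reads of such pairs cannot be told apart.

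Alternatives were other added counts (0.5, 5), other filters, TMM or total read scaling, sample weights, edgeR 4.0.16 and DESeq2 1.42.0 on recovered reads, no fold threshold, a replicate block, removal of the GC trend, thinning to 32731794 reads and leaving out each library. Tested on simulated data of this comparison with 18664 genes, limma recovered 59% of the genes set to change by 1 on the log2 scale and 89% of the genes set to change by 2, and 6.92% of the calls were false. The same shares were 60%, 89% and 7.45% for edgeR, and 69%, 88% and 16.5% for DESeq2. The simulated counts were drawn independently for each gene, with 100 genes changed at each size. They held no GC trend, no shift in cell types and no library that stands apart, so these shares need not hold for the measured libraries.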

Additional observations from a re-analysis of the deposited data

How the results depend on the processing

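The call of Kcnj14 held in each of the 19 other settings, and the calls of Kcnj11 and Kcnc4 held in 9 and 11 of them. Of 532 entries of named members under other settings, 496 kept their side of the threshold, 18 passed it newly and 18 no longer passed it. The 496 include Kcnt2 in the setting with a mean of at least 50, where it was not tested. Of the 532 entries, 26 values of 6 members lay on the other side of 0, 0 of them called, and the largest was 0.216 in size. With sample weights Kcnj5 was also called higher (2 members in all). It averaged 16.8 in 3xTg and 4.68 in NTG, so it passed the filter on the mean only through the 3xTg libraries. Lower members numbered 2 as given above, 5 with DESeq2, 14 with sample weights, 1 with no filter on low values or with total read scaling, 0 with a mean of at least 50 (65 members tested, so fewer genes) and 0 with the GC trend removed. The calls over all genes moved too. Lower genes numbered 312 in the test above, 733 with DESeq2, 1408 with sample weights, 308 with no filter and 288 with total read scaling. They numbered 193 with a mean of at least 50, 293 with the GC trend removed and 106 to 1071 with 1 library left out. Leaving out 1 library gave 0 to 9 lower members and 0 to 6 lower partner genes, against 1 partner gene with all libraries. Lower partner genes were 5 with DESeq2, 9 with sample weights, 2 with no filter or with thinned reads, 0 with a mean of at least 50, and 1 with the GC trend removed, where it was Abcc9 and not Hcn2. Except where named, the cause of these changes was not tested.

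Replicate numbers are shared between the groups, but nothing says that they mark a shared litter or day. The deviations of same-numbered libraries correlated at 0.06, 0.20 and 0.04 across genes, and those of different-numbered libraries at -0.18 to 0.11. Replicate 1 of each group lacked Y-linked transcripts, as given above. Whether the numbers mark a pairing was not tested. With a replicate block, 4 members (Kcnc4, Kcnj11, Kcnj8 and Kcnt1) and 4 partner genes were called lower, and with the block and the GC trend removed together 2 members (Kcnj8 and Kcnt1) and 1 partner gene (Abcc9). Of all 18664 genes tested, 450 were called lower with the block, against 312 without it. With the block and the GC trend removed together, 297 were. DESeq2 gave no adjusted p for 5 members. Depth limits the 32 members with a mean under 100, and 3 libraries a group limit all.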

Other observations

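Opposite-strand transcripts of potassium channel genes were left out of the members, and 3 of 5 were tested. Kcnq1ot1, the imprinted noncoding transcript that runs antisense to Kcnq1, had normalized counts of 861, 979 and 717 in 3xTg, against 880.0, 1055 and 728 in NTG (log2 fold change -0.05, limma adjusted p = 0.872). Kcnq1 itself, which like Kcnd3 was named after its values were seen, had 16, 11.8 and 27.5 in 3xTg, against 32.8, 21 and 22.2 in NTG, and 2.96% of its exon bases are shared with Kcnq1ot1. Kcnd3os had 7.54, 16.3 and 15.6 in 3xTg, against 25.7, 22.4 and 25.1 in NTG, without overlap (-0.91, adjusted p = 0.198), whereas Kcnd3, which encodes the A-type pore Kv4.3, had 707, 786 and 869 in 3xTg, against 944, 855 and 756 in NTG (-0.11, adjusted p = 0.647). Kcnmb4os2 had a log2 fold change of 0.15 (adjusted p = 0.854).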
